A study of Homo sapiens with 9 samples.

Results

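Long intergenic noncoding RNAs, which carry gene symbols starting with LINC, were examined in Huh-7 human hepatoma cells and in a pair of clones made from them by CRISPR/Cas9. The LINC genes with a mean of at least 0.5 FPKM (fragments per kilobase of gene, scaled to library size) in the 3 libraries of at least 1 group were taken as expressed, which gave 226 members of the 1891 LINC genes among the 58735 genes measured. Like messenger RNAs, LINC RNAs are mostly polyadenylated and often spliced, but they have no long reading frame. They are usually made at low levels, and often in only a few cell types. Some stay near the site where they are made and act on a neighbouring gene, others bind proteins or microRNAs elsewhere in the cell, and for most of them no function is known.

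The study asked what loss of apoB, the protein scaffold of liver lipoproteins, does to hepatoma cells. It compared Huh-7 control cells, labelled WT, with Ako-3 cells, which carry an APOB knockout, and with Mko-3 cells, which carry a knockout of MTTP, the gene of the protein that loads lipid onto apoB. All 3 groups were grown in DMEM with fetal bovine serum and kept overnight without serum before RNA was taken. Each group had 3 libraries of poly(A)-selected RNA, described as biological replicates with no word on separate cultures, so that p-values measure the spread between these libraries. Each knockout is 1 clone, and the effect of the lost gene and that of cloning cannot be told apart.

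Total counts per library ranged from 14638727 to 20179760. APOB stood at 2683 to 3871 CPM (counts scaled to a common library size) in control libraries and at 1258 to 1420 in Ako-3 libraries, and MTTP at 603.5 to 662.7 in control and 82.94 to 90.65 in Mko-3 libraries, so that each targeted gene was lower in its clone and still detected. The 9 hepatocyte and hepatoma markers, ALB and AFP among them, were all detected. Markers of blood and squamous epithelium had at most 2 counts in a library, and VWF, COL1A1 and DCN at most 11, while the endothelial marker PECAM1 stood at 6.15 to 13.9 FPKM, and CDH5 and PDGFRB at up to 1.19 and 0.931 FPKM. The control libraries serve both knockouts, and control replicate 2 was the shallowest library.

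Most members were weakly expressed. The highest group mean lay between 0.5 and 1 FPKM for 79 members and between 1 and 2 FPKM for 69, and it reached 10 FPKM for 8. In all, 145 members met the threshold in all 3 groups, 33 in 2 groups and 48 in 1 group. The members that met it in 1 group were split into 22 for control cells, 20 for Ako-3 cells and 6 for Mko-3 cells. Just inside the threshold were LINC00870 at 0.5005 FPKM in control cells and LINC01277 at 0.5052 FPKM in Ako-3 cells. Just outside were LINC01515 at 0.4992 FPKM in control cells and LINC00515 at 0.4922 FPKM in Mko-3 cells. The members were chosen by their FPKM levels in these libraries, so all of these values are descriptions.

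The annotation in the files calls 190 members lincRNA, 16 antisense and 10 processed transcript, and the rest mostly transcribed pseudogenes. The members had a median annotated length of 1838 bases, against 1185 bases for the other 1665 LINC genes. The median distance to the nearest protein-coding gene was 19725 bases for members and 60230 bases for the others, and 10.6% of members against 5.83% of the others overlapped such a gene. Another 67 members lay within 10 kb of one without overlap. Of all members, 50 overlapped some other gene on the same strand and 79 on the opposite strand, and the strand setting of the counting is not given in the sources used here, so their counts may hold reads of those genes.

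Of the most abundant members, LINC01963, LINC02575 and LINC01770 were called in a knockout against control, and the others were not. LINC01608 came close to the limit, with means of 14.3 FPKM in control, 7.46 in Ako-3 and 7.65 in Mko-3 cells. Its log2 fold changes against control were -0.94 ± 0.16 in Ako-3 (edgeR adjusted p = 4.82e-05) and -0.91 ± 0.16 in Mko-3 cells (adjusted p = 5.46e-05). LINC02313 on chromosome 14 had the highest mean over all libraries. Its level was 24.0, 16.9 and 19.4 FPKM in control, 22.1, 25.2 and 24.5 in Ako-3 and 19.6, 21.0 and 17.9 in Mko-3 libraries, and the control libraries overlapped with both clones. LINC01419, described in liver cancer, stood at 24.8, 23.8 and 27.1 FPKM in control, 21.6, 20.8 and 18.7 in Ako-3 and 15.5, 17.6 and 15.3 in Mko-3 libraries. Its groups did not overlap, control cells being highest and Mko-3 cells lowest, and the log2 fold changes against control were -0.31 ± 0.09 (SE) in Ako-3 (edgeR adjusted p = 0.00504) and -0.65 ± 0.09 in Mko-3 cells (adjusted p = 3.11e-06). LINC02381, which overlaps SMUG1 on the opposite strand, had a mean of 16.1 FPKM in control, 11.4 in Ako-3 and 11.7 in Mko-3 cells. LINC01578, now named CHASERR and known to restrain the expression of its neighbour CHD2, had means of 10.46 FPKM in control, 9.16 in Ako-3 and 9.55 in Mko-3 cells.

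**Figure D1:**
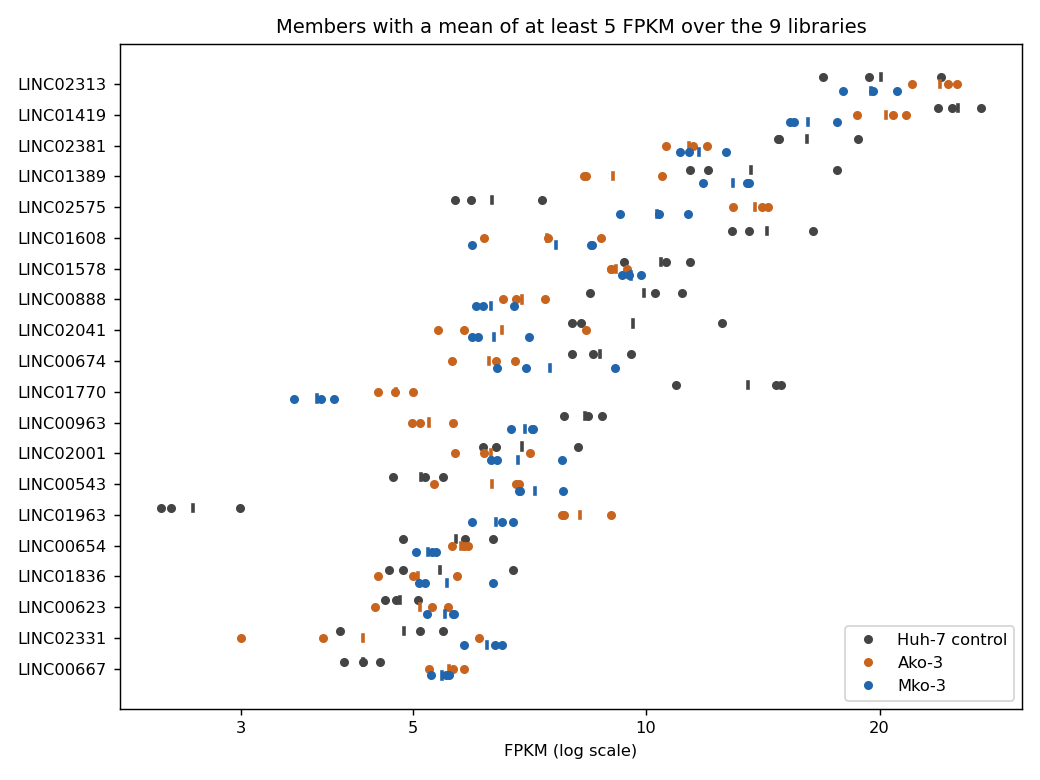
FPKM on a log axis of the 20 members with a mean of at least 5 over the 9 libraries, 1 line per member, with a point per library and a bar at each group's mean. LINC01963 and LINC02575 were lowest in control libraries and LINC01770 highest there, while most of the others had groups that overlapped or lay close together.

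Summed over the 226 members, the level was highest in control and lowest in Mko-3 cells. The sum was 507.7, 440.8 and 504.2 FPKM in control libraries, 425.4, 448.4 and 426.5 in Ako-3 libraries and 381.1, 384.1 and 373 in Mko-3 libraries. Control replicate 2 lay within the Ako-3 range, while all Mko-3 libraries lay below every other library. The group means were 484.2 ± 37.7, 433.4 ± 13.0 and 379.4 ± 5.77 FPKM (SD, n = 3), and the members took 0.115%, 0.0988% and 0.0926% of all counts. The number of members at the threshold by group mean was 197 in control, 187 in Ako-3 and 165 in Mko-3 cells. A lower level in all cells and silencing in a part of them cannot be told apart in these bulk libraries.

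**Figure D2:**
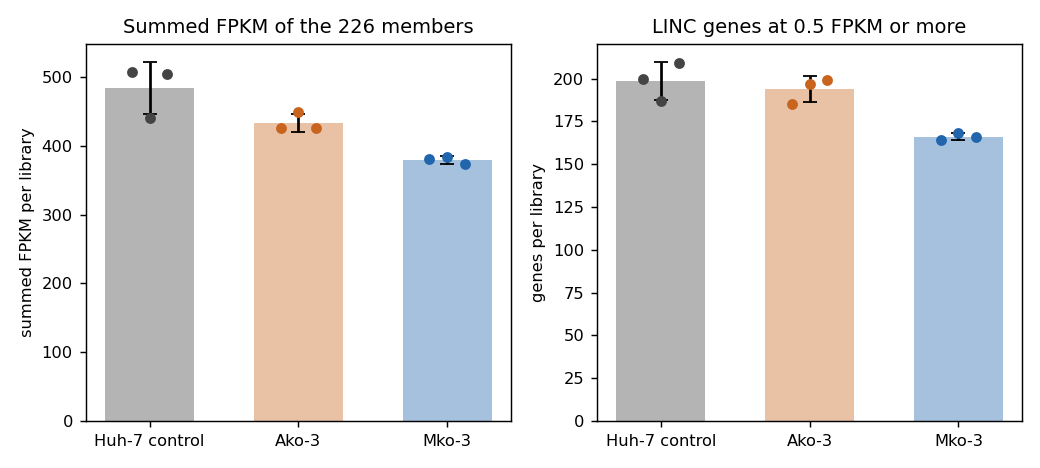
Summed FPKM of the 226 members (left) and number of LINC genes at 0.5 FPKM or more in the library itself (right), with 1 point per library and bars with error bars for mean and SD of the 3 libraries of a group. The Mko-3 libraries, at 164 to 168 genes, lay below all others on both counts.

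Antisense and lincRNA genes that are not members also took smaller shares of the counts in the clones, and the part of a general shift of noncoding RNA in the members' result was not tested. Antisense genes outside the members took 0.36% ± 0.02 (SD, n = 3) of counts in control, 0.31% ± 0.01 in Ako-3 and 0.29% ± 0.004 in Mko-3 cells, and lincRNA genes outside the members 0.31% ± 0.02, 0.25% ± 0.01 and 0.24% ± 0.01. The share of sense intronic genes was 0.0236%, 0.0223% and 0.024%, with Mko-3 and control libraries overlapping, and that of processed pseudogenes 0.356%, 0.333% and 0.316%, without overlap between the groups. Of 40 other named long noncoding RNAs listed for comparison, such as MALAT1 and NEAT1, 39 were in the files and 33 were tested. With edgeR, 0 of these were called higher and 4 lower in Ako-3 cells, and 1 higher and 2 lower in Mko-3 cells, each against control. DESeq2 gave the same counts. Among all genes tested with edgeR, 3.52% were called higher and 5.0% lower in Ako-3 cells, and 3.82% and 7.22% in Mko-3 cells. At an unadjusted p under 0.05 it was 4 higher and 14 lower of 33 in Ako-3 cells, and 6 higher and 15 lower in Mko-3 cells. Of all genes tested, 28.2% were higher and 27.4% lower at that p in Ako-3 cells, and 29.2% and 29.9% in Mko-3 cells. Mitochondrial transcripts took 5.78% ± 0.34, 7.28% ± 0.19 and 5.80% ± 0.04 of counts in control, Ako-3 and Mko-3 cells.

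In Ako-3 cells, 40 of the 190 members tested were called against control, where a call needs a log2 fold change of 1 or more in size together with an edgeR adjusted p no higher than 0.05. Of these, 17 were higher, led by LINC00540, LINC02506 and LINC01285, and 23 were lower, among them LINC00677, LINC02593 and LINC01703. The balance depended on single control libraries, with 20 higher and 17 lower without control replicate 3 and 14 higher and 27 lower without control replicate 2. Of all genes tested, 8.52% were called, 3.52% higher and 5.0% lower, while the members' shares were 21.1%, 8.95% and 12.1%. A member that entered through the group where it is high had to differ, and so these shares support nothing: among the members at the threshold in all 3 groups, 18 of 138 were called, or 13%. Among all genes in the middle of the members' FPKM range, 11.5% were called. The rule of all 3 groups leaves out members that fell below the threshold in a group, which lowers their share. No such rule was set for the genes in that range, so these shares cannot be compared. The median log2 fold change was -0.10 for the members tested, -0.13 for genes in that range and -0.01 for all genes tested. The groups did not overlap for 102 of the 190 members, or 53.7%, against 57.8% of all genes tested. An adjusted p of 0.05 or less alone was met by 82 members, or 43.2%, against 49.9% of all genes tested.

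In Mko-3 cells, 45 of 189 members tested were called against control, 7 of them higher and 38 lower. LINC01559 rose most, and LINC00663, LINC01234 and LINC01127 were among the members that fell most. Of all genes tested, 11.0% were called, 3.82% higher and 7.22% lower, while the members' shares were 23.8%, 3.7% and 20.1%. Among the members at the threshold in all 3 groups, 22 of 139 were called, or 15.8%, with 3 higher and 19 lower. Among all genes in the middle of the members' FPKM range 15.2% were called. As in Ako-3 cells, the rule of all 3 groups lowers the members' share, so these shares cannot be compared. The median log2 fold change was -0.35 for the members tested, -0.15 for genes in that range and -0.01 for all genes tested. A negative value was found for 132 of the 189 members. A member that met the threshold only in control cells had to be lower in Mko-3 cells. The shares, median and sign count over all members thus support nothing. For the members at the threshold in all 3 groups the median was -0.31, and 97 of 139 had a negative value. Antisense genes outside the members had a median of -0.33, and lincRNA genes outside the members a median of -0.33 as well. The groups did not overlap for 110 members, or 58.2%, against 60.7% of all genes tested. The adjusted p alone was met by 86 members, or 45.5%, against 54.0% of all genes tested.

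**Figure D3:**
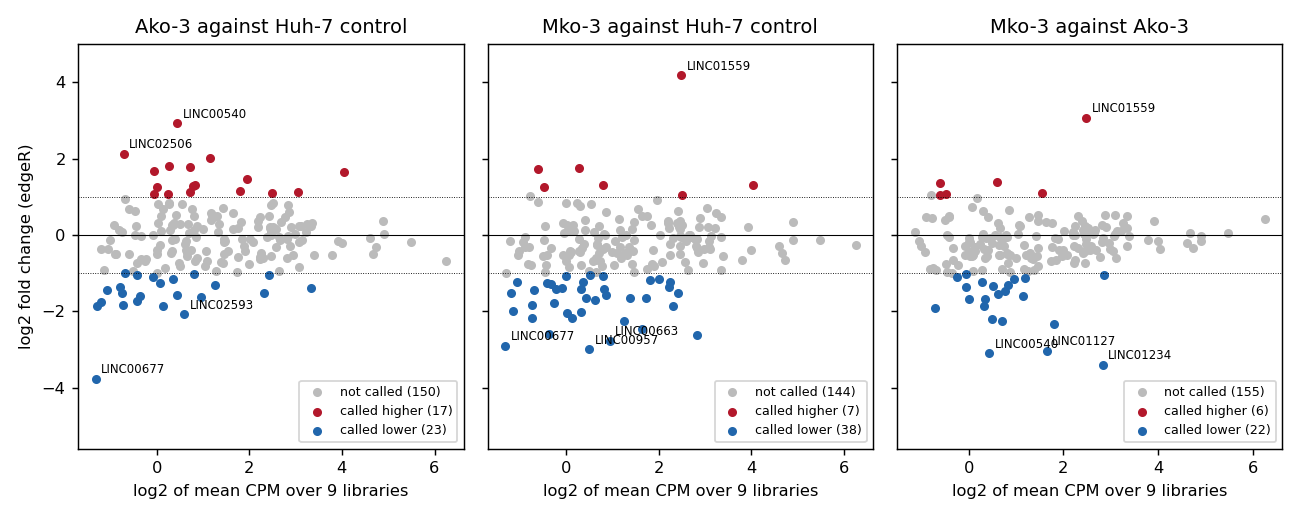
Log2 fold change of each member tested (edgeR) against the log2 of its mean CPM over the 9 libraries, in the 3 comparisons, with called members in colour and dotted lines at a log2 fold change of 1 and -1. Calls in Mko-3 cells were mostly below 0, at 38 lower and 7 higher, and the fitted value of LINC00677 in Ako-3 cells rests on at most 2 counts per library.

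Of the members described next, some met the FPKM threshold only in the group or groups where they were high, so that a difference was built into their choice and their tests support nothing beyond the values. These were LINC00540, LINC02506, LINC01285, LINC01278 and LINC01694 for Ako-3 cells, LINC01559 for Mko-3 cells, LINC00235 and LINC00680 for both clones, LINC00677, LINC00663, LINC01219 and LINC02593 for control cells, LINC01234, LINC01127, LINC00957 and LINC02021 for control and Ako-3 cells, and LINC01786 and LINC00115 for control and Mko-3 cells. Many of the members described next were also picked among called members without overlap between the groups compared. For them that lack of overlap was part of the choice.

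A few members were higher in both clones than in control cells. LINC01963 (ENSG00000260804, chr2:216217045-216220192 in hg38, plus strand) has 1 exon and lies 10742 bases from XRCC5, a gene of DNA end joining. It stood at 7.52, 9.5 and 7.77 CPM in control, 28.7, 25.1 and 24.8 in Ako-3 and 20.7, 21.5 and 18.9 in Mko-3 libraries. All clone libraries lay above every control library, and Ako-3 libraries above all Mko-3 libraries. Relative to control the log2 fold change was 1.66 ± 0.12 in Ako-3 (edgeR adjusted p = 6.66e-10) and 1.30 ± 0.12 in Mko-3 cells (adjusted p = 1.39e-08), with the same control libraries in both comparisons. XRCC5 was higher as well, by 0.51 in Ako-3 (log2, adjusted p = 4.02e-06) and by 0.69 in Mko-3 cells (adjusted p = 3.56e-08), below the limit of 1.

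LINC00235 lies 310 bases from CAPN15 on chromosome 16. It stood at 1.07, 0.726 and 0.999 CPM in control, 2.2, 2.75 and 2.03 in Ako-3 and 2.55, 1.66 and 2.87 in Mko-3 libraries, and only the clones overlapped. On the log2 scale it rose by 1.29 ± 0.30 in Ako-3 (edgeR adjusted p = 0.00132) and by 1.30 ± 0.32 in Mko-3 cells (adjusted p = 0.0017). LINC00680, annotated as a transcribed pseudogene, was also called in both, at 1.82 ± 0.40 in Ako-3 and 1.75 ± 0.41 in Mko-3 cells. It overlaps the readthrough gene LINC00680-GUSBP4 on the same strand, and reads of pseudogene copies may be split between them, so its value is uncertain. LINC02575 stood at 5.48, 5.21 and 6.77 CPM in control, 13.0, 13.3 and 11.9 in Ako-3 and 10.4, 9.6 and 8.48 in Mko-3 libraries. Its log2 fold change of 1.12 ± 0.14 was called in Ako-3 cells (edgeR adjusted p = 1.6e-06), while that of 0.69 ± 0.15 in Mko-3 cells (adjusted p = 0.000619) was below the limit of 1.

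LINC00857, described in several cancers and 2138 bases from ANXA11, stood at 4.3, 3.3 and 4.27 CPM in control, 7.27, 7.33 and 6.95 in Ako-3 and 8.38, 7.65 and 8.68 in Mko-3 libraries. It rose by a log2 fold change of 1.04 ± 0.17 in Mko-3 cells (edgeR adjusted p = 1.99e-05), which became 0.94 without control replicate 2 and was then not called. In Ako-3 cells the value was 0.84 ± 0.17 (adjusted p = 0.000292), and it was not called.

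More members were lower in both clones. LINC01770 (ENSG00000225285, chr1:1430539-1434573 in hg38, minus strand) was the most abundant of them. It stood at 12.8, 9.37 and 12.7 CPM in control, 4.09, 4.33 and 3.88 in Ako-3 and 3.4, 3.03 and 3.26 in Mko-3 libraries, and the 3 groups did not overlap. Relative to control, LINC01770 was at -1.51 ± 0.16 on the log2 scale in Ako-3 (edgeR adjusted p = 1.6e-07) and -1.86 ± 0.17 in Mko-3 cells (adjusted p = 7.83e-09). For Mko-3 against Ako-3 cells LINC01770 was at -0.35 ± 0.19 (edgeR adjusted p = 0.15) and was not called. Its neighbour VWA1, which encodes a protein of the extracellular matrix, lies 288 bases away and was higher by 0.35 on the log2 scale in Ako-3 (adjusted p = 0.00207) and by 0.53 in Mko-3 cells (adjusted p = 3.82e-05), both below the limit. The promoter of LINC01770 is shown since this is the member with the strongest signal that fell in both clones while its close neighbour did not. It is the RefSeq sequence from 250 bases before to 50 after the start (GRCh38.p14, chr1:1434524-1434823, minus strand), with no motif of those searched, so that no base is in capitals.
LINC01770: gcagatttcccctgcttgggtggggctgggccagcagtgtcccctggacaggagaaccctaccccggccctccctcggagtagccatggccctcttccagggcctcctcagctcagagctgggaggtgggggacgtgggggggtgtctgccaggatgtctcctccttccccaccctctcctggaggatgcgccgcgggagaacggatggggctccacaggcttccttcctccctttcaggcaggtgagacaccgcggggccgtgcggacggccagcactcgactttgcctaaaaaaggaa

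LINC00663, which lies among zinc finger genes on chromosome 19 and is 9416 bases from ZNF506, stood at 4.78, 4.88 and 5.27 CPM in control, 2.14, 1.27 and 1.51 in Ako-3 and 0.623, 1.03 and 0.522 in Mko-3 libraries. The groups were in the same order as for LINC01770 and did not overlap. The log2 fold change was -1.62 ± 0.23 in Ako-3 (edgeR adjusted p = 6.49e-06) and -2.77 ± 0.27 in Mko-3 cells (adjusted p = 2.3e-08). It overlaps another noncoding gene on the same strand. Mko-3 cells were lower than Ako-3 cells by a log2 fold change of -1.15 ± 0.36 (adjusted p = 0.00687), which became -0.97 without Mko-3 replicate 3 and -0.92 without Ako-3 replicate 1 and was then not called, as with DESeq2 (adjusted p = 0.0532).

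LINC01126, 601 bases from ZFP36L2, a gene of messenger RNA decay, stood at 5.86, 4.62 and 5.83 CPM in control, 3.05, 1.58 and 2.09 in Ako-3 and 0.793, 1.14 and 1.57 in Mko-3 libraries. Every control library was above every clone library. In log2 terms the difference was -1.31 ± 0.23 in Ako-3 (edgeR adjusted p = 7.73e-05) and -2.25 ± 0.25 in Mko-3 cells (adjusted p = 1.52e-07), while ZFP36L2 itself was at 0.07 and -0.08. LINC01703, 11638 bases from H3F3A, stood at 3.12, 2.11 and 3.05 CPM in control, 0.611, 0.866 and 0.811 in Ako-3 and 0.34, 0.628 and 0.914 in Mko-3 libraries. The values were -1.85 ± 0.31 for Ako-3 (log2, edgeR adjusted p = 4.08e-05) and -2.17 ± 0.35 for Mko-3 cells (adjusted p = 1.93e-05).

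LINC01503, a noncoding RNA described in squamous cancers, fell in both clones, with log2 values of -1.58 ± 0.32 in Ako-3 (edgeR adjusted p = 0.00035) and of -1.66 ± 0.31 in Mko-3 cells (adjusted p = 0.00011), from 4.14, 2.18 and 2.78 CPM in control libraries. LINC01219, next to MRPL23 in the region that also holds H19, had values of -1.83 ± 0.45 and -1.83 ± 0.40, and without Ako-3 replicate 3 the first became -2.47. LINC01556 had 40, 22 and 40 counts in control libraries, 11, 11 and 12 in Ako-3 libraries and 5, 0 and 11 in Mko-3 libraries. Its log2 fold change was -1.61 ± 0.34 in Ako-3 (edgeR adjusted p = 0.000502) and -2.60 ± 0.54 in Mko-3 cells (adjusted p = 0.000628), where it became -1.98 without replicate 2 and -3.72 without replicate 3 of the Mko-3 cells.

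LINC00677 (ENSG00000259717, chr14:103120847-103123007 in hg38, minus strand) was close to the limit of detection in the clones. It had 29, 15 and 27 counts in control, 2, 2 and 1 in Ako-3 and 4, 4 and 1 in Mko-3 libraries. Since the Ako-3 libraries had at most 3 counts each, no fitted fold change is given for them. After scaling by library size, the 5 counts in Ako-3 and 71 in control libraries give a ratio of 0.0685, with a 95% interval of 0.0216 to 0.167 that covers counting error only. In Mko-3 cells the log2 fold change was -2.90 ± 0.49 (edgeR adjusted p = 3.99e-05). TNFAIP2, 435 bases away and known as a TNF-induced gene, had values of -0.45 (adjusted p = 1.78e-05) and -0.47 (adjusted p = 1.48e-05), below the limit. The promoter is shown because this member had at most 4 counts in any library of the clones, with a GC box (GGGCGG or its reverse complement) in capitals (GRCh38.p14, chr14:103122860-103123159, minus strand, its start site 98 bases from that in the files).
LINC00677: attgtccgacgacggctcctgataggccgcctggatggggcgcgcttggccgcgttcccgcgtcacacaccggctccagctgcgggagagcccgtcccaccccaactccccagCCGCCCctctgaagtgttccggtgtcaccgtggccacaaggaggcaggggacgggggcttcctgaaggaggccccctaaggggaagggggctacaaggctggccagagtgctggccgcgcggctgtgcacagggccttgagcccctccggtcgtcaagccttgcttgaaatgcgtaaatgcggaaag

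**Figure D4:**
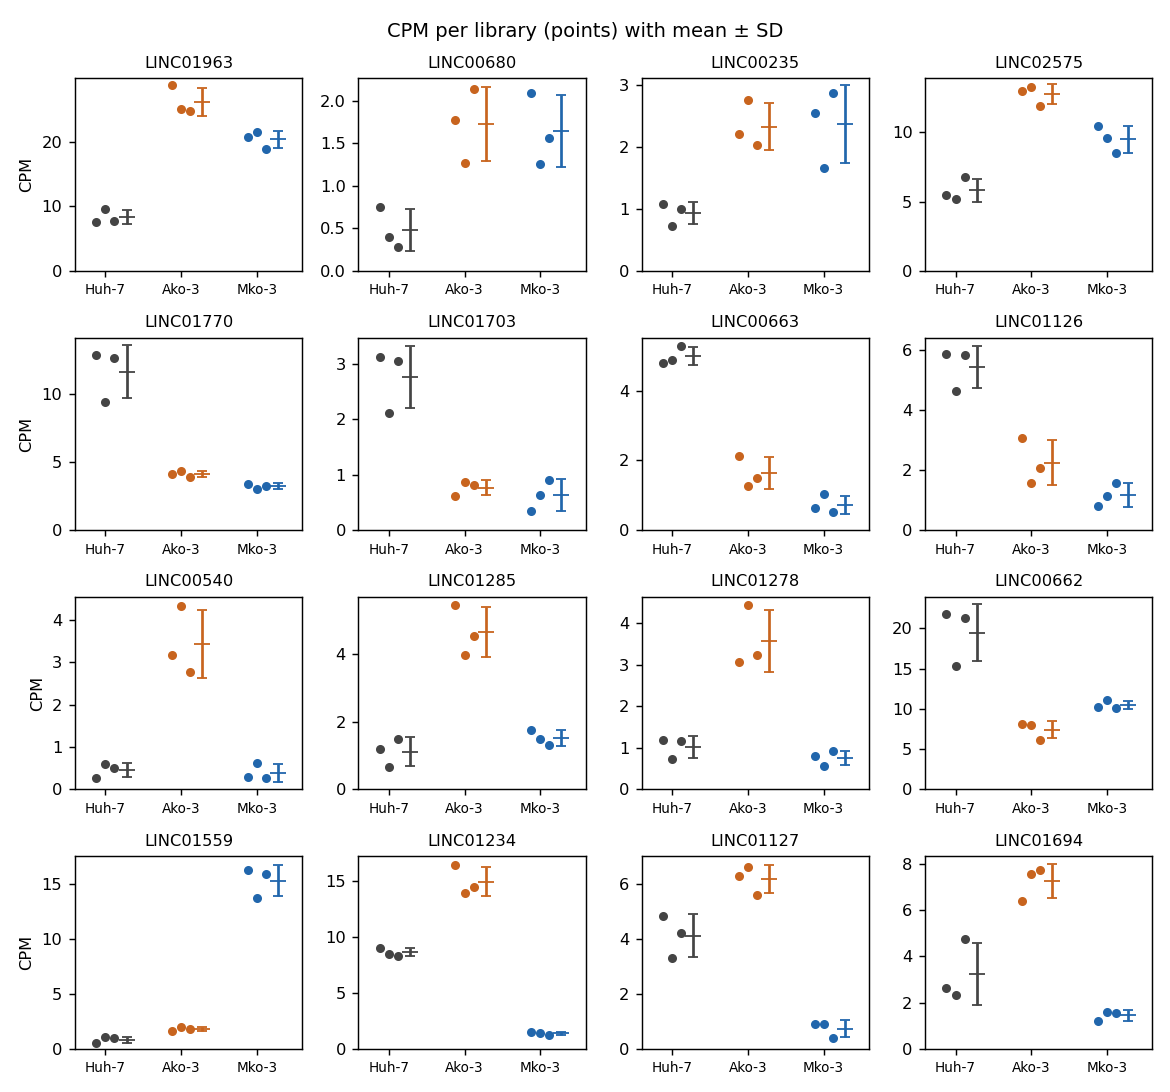
CPM in each library (points) and mean with SD (bars, n = 3) of 16 members, with a separate axis from 0 for each. The first row holds members that were higher and the second row members that were lower in both clones. The third row holds members highest in Ako-3 cells, and LINC00662, which was lowest there and also lower in Mko-3 than in control cells. The last row holds the members that separated Mko-3 from Ako-3 cells, such as LINC01559 at 13.8 to 16.3 CPM in Mko-3 and 1.65 to 1.99 in Ako-3 libraries.

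Other members stood highest in Ako-3 cells. LINC00540 on chromosome 13, far from any coding gene, stood at 0.269, 0.594 and 0.5 CPM in control, 3.18, 4.33 and 2.78 in Ako-3 and 0.283, 0.628 and 0.261 in Mko-3 libraries. Ako-3 cells were higher than control by 2.92 ± 0.34 on the log2 scale (edgeR adjusted p = 5.28e-07), and Mko-3 cells were lower than Ako-3 cells by -3.10 ± 0.34 (adjusted p = 2.12e-12). It did not pass the count filter between Mko-3 and control cells. LINC01285 on the X chromosome stood at 1.18, 0.66 and 1.5 CPM in control, 5.44, 3.97 and 4.52 in Ako-3 and 1.76, 1.49 and 1.31 in Mko-3 libraries. Its values were 2.02 ± 0.27 for Ako-3 against control (edgeR adjusted p = 2.96e-06) and -1.60 ± 0.23 for Mko-3 against Ako-3 cells (adjusted p = 1.35e-08).

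LINC01278 (ENSG00000235437, chrX:63343227-63561071 in hg38, minus strand) spans the gene SPIN4 on the same strand, so that some of its reads may belong to SPIN4. It stood at 1.18, 0.726 and 1.17 CPM in control, 3.05, 4.43 and 3.24 in Ako-3 and 0.793, 0.571 and 0.914 in Mko-3 libraries, with Ako-3 libraries above all others. The log2 fold change was 1.78 ± 0.27 for Ako-3 against control (edgeR adjusted p = 1.96e-05) and -2.25 ± 0.29 for Mko-3 against Ako-3 cells (adjusted p = 4.36e-10). Its promoter (GRCh38.p14, chrX:63561046-63561345, minus strand, start site 24 bases from that in the files) is shown as that of a member raised in Ako-3 cells, with TATA boxes (TATAAA or its reverse complement) at -241 and -146 and an E-box (CACGTG) at 20 in capitals, counted from the start site.
LINC01278: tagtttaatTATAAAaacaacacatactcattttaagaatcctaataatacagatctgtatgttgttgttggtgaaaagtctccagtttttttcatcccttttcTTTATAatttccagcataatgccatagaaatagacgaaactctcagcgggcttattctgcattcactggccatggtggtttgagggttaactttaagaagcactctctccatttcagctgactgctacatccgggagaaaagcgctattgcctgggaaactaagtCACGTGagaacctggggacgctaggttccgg

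LINC00662, described in liver cancer, was lowest in Ako-3 cells. It stood at 21.8, 15.4 and 21.3 CPM in control, 8.12, 8.0 and 6.2 in Ako-3 and 10.2, 11.1 and 10.2 in Mko-3 libraries. It fell by 1.40 ± 0.15 in Ako-3 cells on the log2 scale (edgeR adjusted p = 1.63e-07), which was called, and the value of -0.91 ± 0.13 in Mko-3 cells (adjusted p = 4.39e-06) was below the limit of 1. Between the clones the difference was 0.49 ± 0.13 (adjusted p = 0.00174), with no overlap.

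Between the clones, 28 of 183 members tested were called, 6 higher and 22 lower in Mko-3 than in Ako-3 cells. Of all genes tested, 5.73% were called, 2.26% higher and 3.47% lower, while the members' shares were 15.3%, 3.28% and 12%. As above, the choice of members raises their shares, which support nothing. Among the members at the threshold in all 3 groups it was 5 of 137, or 3.65%, and among all genes in the middle of the members' FPKM range 7.19%. The rule of all 3 groups lowers the first of these shares, so they cannot be compared. The median log2 fold change was -0.27 for the members, -0.02 for genes in that range and 0.005 for all genes tested. For the members at the threshold in all 3 groups it was -0.19. Outside the members it was -0.16 for lincRNA genes and -0.15 for antisense genes. The groups did not overlap for 89 members, or 48.6%, against 49.6% of all genes tested, and the adjusted p alone was met by 68 members, or 37.2%, against 41.6%.

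LINC01559 (ENSG00000180861, chr12:13371089-13387167 in hg38, minus strand), described in gastrointestinal cancers, rose most in Mko-3 cells. It had 10, 16 and 17 counts in control, 27, 39 and 31 in Ako-3 and 288, 241 and 245 in Mko-3 libraries. In CPM this was 0.537, 1.06 and 0.944, then 1.65, 1.99 and 1.8, then 16.3, 13.8 and 15.99. The 3 groups did not overlap, and only Mko-3 cells were well apart from the others. It became a member through its Mko-3 level alone, as its means were 0.212 FPKM in control, 0.452 in Ako-3 and 3.85 in Mko-3 cells. The log2 fold change was 4.18 ± 0.20 for Mko-3 against control (edgeR adjusted p = 8.78e-13) and 3.07 ± 0.16 for Mko-3 against Ako-3 cells (adjusted p = 9.2e-28). For Ako-3 against control it was 1.10 ± 0.33 (adjusted p = 0.00896), which became 0.85 (adjusted p = 0.0536) without control replicate 1. Its nearest coding gene, the glutamate receptor gene GRIN2B at 50775 bases, had too few counts to be tested.

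LINC01234 (ENSG00000249550, chr12:113679459-113773683 in hg38, minus strand), which has been linked to the growth of several kinds of tumour cells, moved in opposite directions in the clones. It stood at 9.02, 8.51 and 8.33 CPM in control, 16.4, 14.0 and 14.4 in Ako-3 and 1.53, 1.43 and 1.24 in Mko-3 libraries. Ako-3 libraries were all above and Mko-3 libraries all below the control libraries. The log2 fold change was 0.78 ± 0.12 in Ako-3 (edgeR adjusted p = 2.41e-05, below the limit of 1), -2.62 ± 0.19 in Mko-3 cells (adjusted p = 3.96e-10) and -3.40 ± 0.17 between the clones (adjusted p = 8.27e-29). RBM19, 43055 bases away, was at 0.60, 0.48 and -0.12 in the same comparisons. The promoter of LINC01234 (GRCh38.p14, chr12:113773634-113773933, minus strand) is shown for the member with the largest difference between the clones, with CCAAT boxes (CCAAT or its reverse complement) at -124, -55 and -21 from the start site and an NRF2 element (TGACNNNGC) at -167 in capitals.
LINC01234: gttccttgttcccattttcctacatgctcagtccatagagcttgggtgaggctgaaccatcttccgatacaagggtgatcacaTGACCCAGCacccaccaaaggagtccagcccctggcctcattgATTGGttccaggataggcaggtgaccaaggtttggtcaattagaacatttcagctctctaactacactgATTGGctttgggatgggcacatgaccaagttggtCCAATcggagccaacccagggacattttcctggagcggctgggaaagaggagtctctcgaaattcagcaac

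LINC01127 on chromosome 2, 4677 bases from IL1R2, had the same order of groups. It stood at 4.84, 3.3 and 4.22 CPM in control, 6.29, 6.62 and 5.62 in Ako-3 and 0.906, 0.914 and 0.392 in Mko-3 libraries. On the log2 scale the change was 0.57 ± 0.18 in Ako-3 (edgeR adjusted p = 0.0119), -2.46 ± 0.30 in Mko-3 cells (adjusted p = 4.73e-07) and -3.03 ± 0.25 between the clones (adjusted p = 1.3e-17). IL1R2, which encodes a decoy receptor of interleukin 1, was also lower in Mko-3 than in Ako-3 cells, by -1.11 (adjusted p = 0.000214).

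LINC01694 stood at 2.63, 2.31 and 4.77 CPM in control, 6.41, 7.59 and 7.76 in Ako-3 and 1.19, 1.6 and 1.57 in Mko-3 libraries, and control replicate 3 was well above the other control libraries. The difference between the clones was -2.32 ± 0.20 (edgeR adjusted p = 3.07e-16). Against control, the value of 1.14 ± 0.22 in Ako-3 cells became 0.9997 without control replicate 1 and 0.97 without control replicate 2, and that of -1.18 ± 0.29 in Mko-3 cells became -0.78 without control replicate 3, and none of these was then called. LINC02593 was lowest in Ako-3 cells, at 3.33, 2.44 and 3.05 CPM in control, 1.04, 0.611 and 0.463 in Ako-3 and 2.27, 1.6 and 1.63 in Mko-3 libraries. It fell by 2.08 ± 0.32 on the log2 scale in Ako-3 cells (edgeR adjusted p = 1.83e-05) and was higher in Mko-3 than in Ako-3 cells by 1.39 ± 0.35 (adjusted p = 0.000833).

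LINC00957 and LINC01637 were low in Mko-3 cells. LINC00957 had 74, 22 and 64 counts in control, 25, 47 and 22 in Ako-3 and 14, 0 and 5 in Mko-3 libraries. Its log2 fold change of -2.998 ± 0.66 in Mko-3 cells against control (edgeR adjusted p = 0.00325) ranged from -4.25 without Mko-3 replicate 1 to -2.39 without Mko-3 replicate 2, which had 0 counts. LINC01637 stood at 2.26, 2.31 and 1.67 CPM in control, 1.71, 1.83 and 2.14 in Ako-3 and 0.396, 0.857 and 0.261 in Mko-3 libraries, with values of -2.01 ± 0.39 against control (edgeR adjusted p = 0.000162) and -1.87 ± 0.38 against Ako-3 cells (adjusted p = 2.65e-05). Without Mko-3 replicate 2 these became -2.61 and -2.49.

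LINC RNAs known from liver were few in these cells. Of 10 liver-associated LINC genes listed, 3 were members, LINC01348, LINC01146 and LINC00671. The other listed genes were at most 0.374 FPKM in any group mean, and LINC00844 and LINC01018 were listed at 0 in all groups. LINC01348 stood at 6.39, 6.34 and 8.71 CPM in control, 4.4, 4.58 and 3.76 in Ako-3 and 3.4, 2.97 and 3.33 in Mko-3 libraries, without overlap. Its log2 fold change of -1.16 ± 0.18 in Mko-3 cells (edgeR adjusted p = 1.84e-05) became -0.99 without control replicate 3 and was then not called. LINC01146, now named HISLA, and LINC00671 were not called in any of the 3 comparisons, but some of their values missed only the limit of 1. LINC01146 was at 0.71 in Ako-3 cells against control (log2, edgeR adjusted p = 0.0204) and -0.55 in Mko-3 against Ako-3 cells (adjusted p = 0.0329). LINC00671 was at -0.97 in Mko-3 cells against control (adjusted p = 0.00792).

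Of 15 LINC genes described in liver cancer, 13 were found in the files by name, 8 were members and 9 were tested. In Ako-3 cells edgeR and DESeq2 each called 0 higher and 2 lower against control, with 1 higher and 6 lower at an unadjusted p under 0.05, which 28.2% of all genes tested met as higher and 27.4% as lower. The called genes were LINC00662 and LINC00511, and the second has levels below the threshold for members. Among all genes tested with edgeR, 3.52% were called higher and 5.0% lower in Ako-3 cells, and 3.82% and 7.22% in Mko-3 cells. In Mko-3 cells against control, 0 were called with edgeR and 0 with DESeq2, while 0 were higher and 6 lower at an unadjusted p under 0.05 in edgeR, met by 29.2% of all genes as higher and 29.9% as lower. Between the clones LINC01224 was lower in Mko-3 cells, at 5.21, 6.34 and 5.29 CPM against 13.0, 11.3 and 10.9 in Ako-3 libraries. This log2 fold change of -1.06 ± 0.14 (edgeR adjusted p = 8.8e-10) became -0.98 without Ako-3 replicate 1 and was then not called. LINC00963, with the most reads of the members, stood at 111 ± 6.42 CPM in control, 69.9 ± 4.43 in Ako-3 and 92.9 ± 3.43 in Mko-3 cells (SD, n = 3), and it differed from control by -0.68 ± 0.07 in Ako-3 (log2, edgeR adjusted p = 1.81e-07) and by -0.27 ± 0.07 in Mko-3 cells (adjusted p = 0.0019), both below the limit. LINC00467, the only one of 9 listed genes with a known microprotein reading frame found under that name, was not called in any comparison. In Mko-3 cells against control it was at -0.39 ± 0.11 (log2, edgeR adjusted p = 0.00433), below the limit of 1.

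Called members were set beside their nearest protein-coding genes. In Ako-3 cells against control, both genes were tested for 33 called members, and 3 of these had a called neighbour, all in the same direction. They were LINC01786 with SCNN1D, a sodium channel gene, LINC02593 with SAMD11, and LINC00115. LINC01786 lies only 16 bases from SCNN1D, and its value of -1.87 ± 0.61 was not called without Ako-3 replicate 1 (-1.75) or 3 (-1.31) or control replicate 3 (-1.58). Without Ako-3 replicate 2 it was -3.11, and DESeq2 did not call it (adjusted p = 0.0534). In Mko-3 cells against control it was 2 of 39, LINC01273 and LINC02021, and between the clones 1 of 21, LINC01127 with IL1R2. Among members that were not called, 5 of 118, 9 of 112 and 1 of 120 had a called neighbour in these comparisons. In percent, 9.09, 5.13 and 4.76 of the called members had a called neighbour, while 7.38, 9.5 and 5.52 of all protein-coding genes tested were called, and the first counts rest on 3, 2 and 1 neighbours. The correlation of the log2 fold changes of a member and its neighbour was 0.23, 0.16 and 0.29 (Pearson's r over 151, 151 and 141 pairs, across genes that share their libraries), given as a description.

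**Figure D5:**
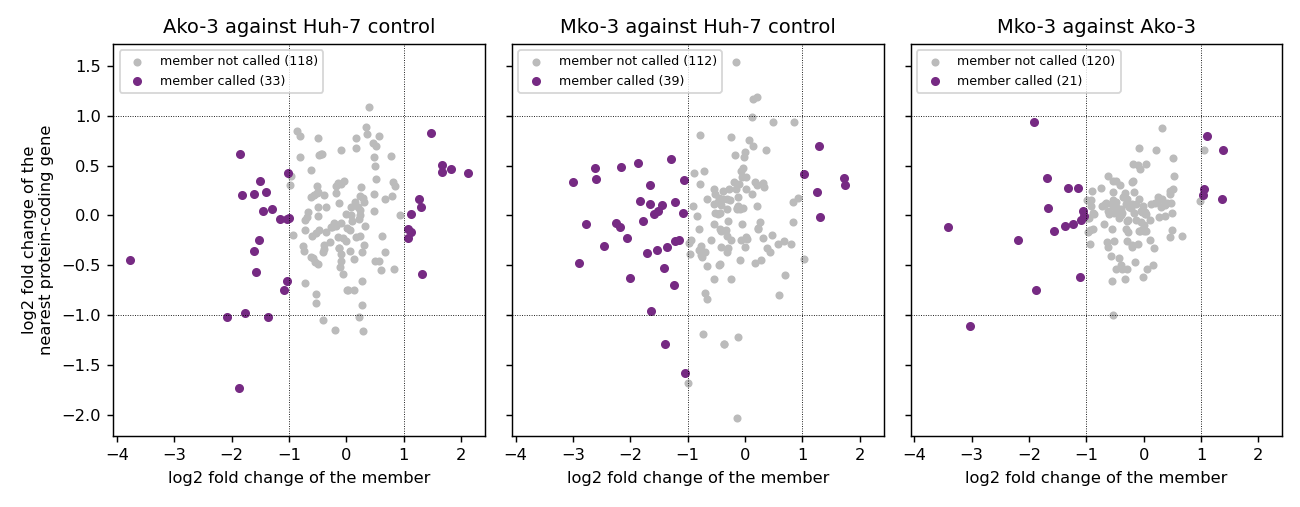
Log2 fold change of each member (horizontal) and of its nearest protein-coding gene (vertical) in the 3 comparisons, where both were tested, with dotted lines at 1 and -1. Called members, in colour, extend far to the left and right, while all but a few of their neighbours lay between the dotted lines.

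RefSeq promoters were matched for 149 members, with a median GC content of 58.3%, equal to that of all 27305 promoters. On either strand, the TATA box (TATAAA) was found in 12.8% of members' promoters and 11.95% of all, the GC box (GGGCGG) in 48.3% and 44.6%, and the AP-1 site (TGACTCA) in 6.71% and 4.92%. The CCAAT box was found in 43.6% and 35.7%, the NRF2 element (TGACNNNGC) in 18.8% and 13.6% and the E-box (CACGTG) in 14.1% and 7.43%. An HNF4A motif (CAAAGTCCA) was in 0 of the 149, and in 0.359% of all. These are letter matches in a short window and were not tested.

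Members that were not tested numbered 36, 37 and 43 in the 3 comparisons for lack of counts. Of the members called, 25 of 40 in Ako-3 cells, 33 of 45 in Mko-3 cells and 17 of 28 between the clones kept their call whichever single library was left out.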

How the data were processed

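RNA of Huh-7 control, Ako-3 and Mko-3 cells (3 libraries each) was selected with poly-T beads. The authors had reads aligned to hg38 with HISAT2 2.0.5 and counted per gene with featureCounts 1.5.0-p3, tools that the submitters' processing notes also name, and deposited the raw read counts without normalization. Those notes also list GRCh37 and hg19, with no role. All 19818 coding genes compared overlapped their hg38 positions in GENCODE. The authors made the deposited FPKM values from these counts, gene length and a library size. Second strands were made with dTTP, and the strand setting of counting is not given in the sources used here.

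From the counts, each comparison was fitted on all genes of its 6 libraries with edgeR 4.0.16 in R 4.3.3 (TMM factors, filterByExpr with 10 as minimum count, quasi-likelihood F test with robust dispersions), which was tested on simulated data. Calls needed a log2 fold change of 1 or more in size and a p of 0.05 or less after Benjamini-Hochberg adjustment over all genes tested. The standard error is the log2 fold change divided by the square root of F. CPM were scaled with TMM factors over 9 libraries. DESeq2 1.42.0, other filters and scaling, other thresholds for members, a replicate block and the omission of each library were tried. At 14638727 to 20179760 counts per library, members near 10 counts have wide errors. A group with at most 3 counts in every library was taken as at the floor.

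Named were members with a mean of at least 5 FPKM, up to 8 largest rises and falls per comparison among called members without overlap, up to 6 called alike in both knockouts or oppositely signed and called between them, members of 3 written lists (liver-associated, liver cancer, microprotein), those beside the threshold, and the coding genes nearest to them. A further list held other named long noncoding RNAs. LINC00115, LINC01273, LINC02021 and LINC00511 were named after their values were seen, and so was the choice among named genes. Members and lists were chosen with earlier results of these data known. Of the members, 223 were found in GENCODE by identifier, where 14 have another name.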

Additional observations from a re-analysis of the deposited data

Results flagged for a closer look

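For 20 of the members described, edgeR called a difference between Mko-3 and Ako-3 cells at the same limits. These members were looked at again because the effect against the same control libraries was not the same in both clones. Of the 28 members called between the clones, only 5 met the FPKM threshold in all 3 groups, 1 higher and 4 lower in Mko-3 cells. Most of the 20 thus became members through 1 or 2 groups. For these a difference was built into their choice, and their tests support nothing beyond the values. Lower in Mko-3 cells were LINC01234 (-3.40), LINC00540 (-3.10), LINC01127 (-3.03), LINC01694 (-2.32), LINC01278 (-2.25), LINC00957 (-2.20), LINC02506 (-1.91), LINC01637 (-1.87), LINC02026 (-1.68), LINC01285 (-1.60), LINC02241 (-1.48), LINC02006 (-1.36), LINC00663 (-1.15) and LINC01224 (-1.06). Higher in Mko-3 cells were LINC01559 (3.07), LINC02593 (1.39), LINC01293 (1.37), LINC01488 (1.10), LINC02365 (1.06) and LINC02490 (1.04).

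Some of these values changed when 1 library was left out. The value of LINC02506 became -2.66 without Mko-3 replicate 3, and that of LINC00957 became -3.45 without Mko-3 replicate 1 and -1.60 without Mko-3 replicate 2. DESeq2 gave LINC00957 an adjusted p of 0.133. LINC02006 became -0.97 without Mko-3 replicate 1, and LINC01488 became 0.999 without Ako-3 replicate 2. LINC01293 had an adjusted p of 0.066 without Ako-3 replicate 3. LINC02365 lost its call without Mko-3 replicate 3 (0.77) and Ako-3 replicates 1 (0.96) and 3 (0.87). LINC02490 lost it without Mko-3 replicates 2 (0.64) and 3 (1.08) and without Ako-3 replicates 2 (1.11) and 3 (0.86). LINC01637 became -2.49 without Mko-3 replicate 2, LINC00663 became -0.97 without Mko-3 replicate 3 and -0.92 without Ako-3 replicate 1, and LINC01224 became -0.98 without Ako-3 replicate 1. Of the 20 members, 13 kept their call without any single library, for example LINC01234 at -3.47 to -3.33, LINC01559 at 3.01 to 3.15, LINC01127 at -3.21 to -2.76 and LINC01694 at -2.41 to -2.19.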

How the results depend on the processing

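In Ako-3 cells against control, Mko-3 cells against control and between the clones, 40, 45 and 28 members were called. A minimum of 10 counts in every library, which leaves fewer genes tested, gave 22, 23 and 14. The adjusted p without a limit on the fold change gave 82, 86 and 68. Members at 0.5 FPKM in all 3 groups gave 18, 22 and 5, and a threshold of 1 FPKM for members, which leaves 147 members, gave 16 between the clones. Leaving out 1 library gave 36 to 42, 42 to 48 and 26 to 31. Without the 3 most abundant members the summed levels were 422.8, 377.8 and 332 FPKM in control, Ako-3 and Mko-3 cells. DESeq2 gave 35, 41 and 22 calls, RLE scaling factors 40, 45 and 28, no filter 40, 51 and 28, and 1 fit of all 9 libraries 39, 45 and 25. In Ako-3 cells against control, the calls were 17 higher and 23 lower, but 20 higher and 17 lower without control replicate 3, and 14 higher and 27 lower without control replicate 2.

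Replicate numbers did not pair the libraries, as the deviations of same-numbered libraries from their group means had correlations of -0.07 to 0.06. With the replicate block, 41, 45 and 29 members were called. Over the log2 fold changes of the members chosen to be named, with an adjusted p of at most 0.05, no alternative changed a sign. Among these, calls were lost in 12 cases other than leave-one-out, of which DESeq2 accounts for 9. Among all members called, DESeq2 also called 33 of 40, 38 of 45 and 21 of 28. The cause of these losses was not tested. At these depths 36, 37 and 43 members had too few counts to be tested.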
